A study of Mus musculus with 8 samples.

Results

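The apolipoprotein L (APOL) family was examined in bone marrow-derived macrophages (BMDMs) through 6 mouse genes, Apol6, Apol7c, Apol8, Apol9a, Apol9b and Apol10b, out of 54532 genes counted. The set was selected on measured values: Apol9b had been among the largest rises in Trex1-knockout (Trex1-KO) over wild-type (WT) BMDMs in these same libraries, so the values of the 6 genes in that comparison are a description and support nothing. The annotation holds 14 genes named Apol and a number, 13 of them on chromosome 15 and 1 on chromosome 1. RNA-Seq of polyadenylated RNA was available from 4 groups of 2 libraries each.

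The groups were WT BMDMs and Trex1-KO BMDMs, both with the vehicle DMSO, and Trex1-KO BMDMs with H151 or with SN-011, small molecules that inhibit STING. Trex1 encodes the exonuclease that removes DNA from the cytosol, and STING is the adaptor that carries the signal of the DNA sensor cGAS towards type I interferon (IFN). Marrow was taken from mice of 6 to 8 weeks of age, was cultured for 7 days in medium with L929 cell supernatant, and the cells were then treated for 12 h. H151 was used at 500 nM per the labels, which state no concentration for SN-011, and the study's methods give the same concentration for both. The knockout was carried by the whole animal (Trex1-/-), so the antagonist groups share that genotype with their vehicle control. The study describes the libraries of a group as independent experiments, but the labels do not say whether they share an animal, so p-values measure only the spread between these libraries, which may be partly technical. The 2 replicates of each group are called replicate 1 and replicate 2 after their titles.

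APOL proteins are rich in amphipathic helices that associate with membranes, and the family is best known for human APOL1, a serum factor that kills trypanosomes. Most other members stay inside the cell, where they bind lipids and act at membranes. Mouse Apol9a and Apol9b encode near-identical proteins that bind phosphatidylethanolamine and restrict certain viruses, and several members are known to be induced by IFN in macrophages and other cells.

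The control regions of 4 members are shown because they hold, or in Apol8 lack, the core of the IFN-stimulated response element (ISRE), the DNA element through which type I IFN acts on its target genes. Each line gives the 150 bases before the first RefSeq start of the gene (build GRCm38.p6), from 5′ to 3′ on the strand of the gene. Capitals mark matches to the ISRE core, searched as GAAANNGAAA on both strands (TTTCNNTTTC on the other), with overlapping matches allowed. The stretches are chr15:77728922-77729071 on the plus strand for Apol9b, and on the minus strand chr15:77411081-77411230 for Apol9a, chr15:77533316-77533465 for Apol7c and chr15:77757011-77757160 for Apol8.
Apol9b: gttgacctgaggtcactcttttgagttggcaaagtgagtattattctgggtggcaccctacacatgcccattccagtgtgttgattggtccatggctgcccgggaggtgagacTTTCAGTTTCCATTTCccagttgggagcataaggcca
Apol9a: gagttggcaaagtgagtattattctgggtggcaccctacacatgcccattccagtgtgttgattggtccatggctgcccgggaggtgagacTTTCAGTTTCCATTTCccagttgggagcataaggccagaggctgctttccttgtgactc
Apol7c: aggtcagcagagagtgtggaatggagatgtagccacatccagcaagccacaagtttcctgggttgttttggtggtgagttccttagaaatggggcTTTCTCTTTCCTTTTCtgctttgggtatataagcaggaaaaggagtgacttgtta
Apol8: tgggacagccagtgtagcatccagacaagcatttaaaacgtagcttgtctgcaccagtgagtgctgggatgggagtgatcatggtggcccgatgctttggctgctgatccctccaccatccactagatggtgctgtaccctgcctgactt

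In the 300-base RefSeq promoters, which run from 250 bases before a start to 50 after it, 5 of the 6 members had an entry, and 4 of these 5 held the ISRE core. Apol9b, Apol9a and Apol7c each held a pair of matches that overlapped by 4 bases. From the first RefSeq start of each gene, the pair lay from -37 to -22 in Apol9b, from -59 to -44 in Apol9a and from -55 to -40 in Apol7c, counting the start base as 0. A second RefSeq start puts the same pair from -86 to -71 in Apol9b and from -105 to -90 in Apol9a. Apol10b held 1 match, from -4 to 5, across its start. Across all mouse RefSeq promoters of this length 1131 of 32851 (3.44%) held the core, and of 10379 tested genes with a promoter 4.02% did.

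The promoters of Apol9a and Apol9b were identical at all 278 bases that could be aligned, and the difference in position above comes from where RefSeq places each start. The GENCODE annotation places the start of Apol9b 33 bases and that of Apol9a 55 bases further upstream than the first RefSeq start. The core of the IFN-gamma-activated site (GAS), searched as TTCNNNGAA, was in 0 of the 5 member promoters and in 8.30% of all promoters. Among the other Apol genes 6 had a promoter entry, and the ISRE core was present in Apol10a, Apol11a, Apol11b and Apol7e and the GAS core in Apol10a, Apol11a and Apol11b. Apol7e, which had 1 count over all 8 libraries, also held an overlapping pair of ISRE matches, from -36 to -21. A match describes letters in a window and does not show that a factor binds there.

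**Figure D1:**
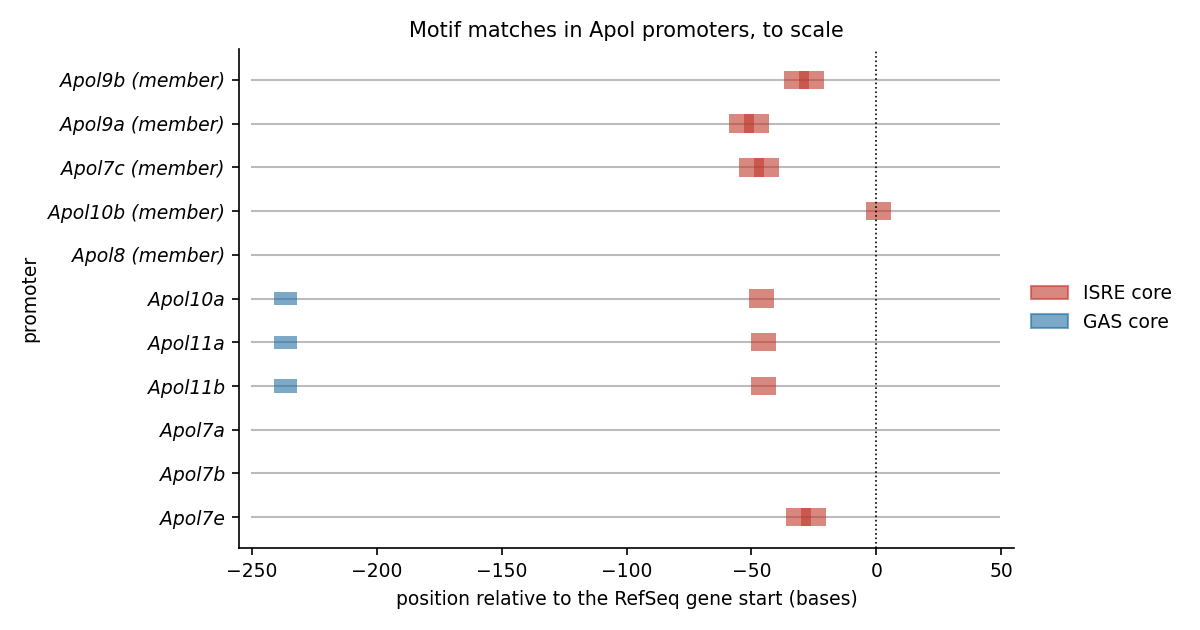
Matches to the ISRE core (red) and the GAS core (blue) in the RefSeq promoters of 11 Apol genes, drawn to scale against the distance from the first RefSeq start in bases. Apol9b, Apol9a and Apol7c hold a pair of overlapping ISRE matches within 59 bases of that start, as does Apol7e, which is not a member. Apol10b holds 1 match across its start, and Apol8 holds none.

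Libraries held between 11845470 and 17284863 counts, so that 1 count equalled 0.0581 to 0.0848 counts scaled to library size (CPM, with trimmed-mean normalization factors) and a floor of 3 counts equalled 0.174 to 0.254 CPM. This floor and all counting intervals cover counting error only, because the read pairs carry no molecular identifiers and need not be independent molecules. Of the 6 members, Apol9b, Apol9a and Apol7c passed the filter on low counts, each through the Trex1-KO groups in which it was high. Apol6, Apol8 and Apol10b did not pass and are given by their counts. Trex1 had no count in any library, WT included, so the genotype rests on the labels. The summed level of 8 macrophage markers lay between 30100 and 32300 CPM in every library. Of these 8 genes Fcgr1, Cd68 and Adgre1 rose in Trex1-KO (log2 fold changes 1.14, 0.44 and 0.19), and Fcgr1 fell with H151 by 0.50 and with SN-011 by 0.49.

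Apol9b (ENSMUSG00000068246, chromosome 15, 77729039 to 77736382, plus strand) was the most abundant member in Trex1-KO BMDMs. Its level was 0.294 and 0.135 CPM in the WT libraries, 10.9 and 12.2 CPM in the Trex1-KO libraries, 3.50 and 5.03 CPM with H151, and 6.51 and 6.79 CPM with SN-011. The 4 groups did not overlap, and their order from the lowest was WT, H151, SN-011 and Trex1-KO with vehicle. Only 4 and 2 read pairs stood behind the WT values, against 144 and 185 behind the Trex1-KO values, and the counting ratio of Trex1-KO to WT was 54.7.

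Apol9a (ENSMUSG00000057346, chromosome 15, 77403789 to 77411135, minus strand), the near-identical copy, followed the same order of groups, at a lower level than Apol9b in the Trex1-KO libraries but not in WT. It was counted at 0.368 and 0.541 CPM in the WT libraries, 2.56 and 3.23 CPM in vehicle-treated Trex1-KO, 1.06 and 1.95 CPM with H151, and 1.98 and 2.37 CPM with SN-011. All 6 Trex1-KO libraries lay above both WT libraries, while the ranges with H151 and SN-011 nearly touched, at 1.95 and 1.98 CPM. The fitted log2 fold change of Trex1-KO over WT was 2.64 for Apol9a and 5.71 for Apol9b, the latter 6.32 without WT replicate 1 and 5.25 without WT replicate 2.

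Apol7c (ENSMUSG00000044309, chromosome 15, 77524852 to 77533316, minus strand), a member known from dendritic cells, took another order. It was counted at 0.368 and 0.0677 CPM in the WT libraries, 3.62 and 2.37 CPM in vehicle-treated Trex1-KO, 3.01 and 1.88 CPM with H151, and 0.930 and 0.763 CPM with SN-011. Here the H151 libraries overlapped the vehicle-treated Trex1-KO libraries, whereas the SN-011 libraries lay below both and above WT. The fitted log2 fold change of Trex1-KO over WT was 3.76, on 84 read pairs against 6. It was 5.29 without WT replicate 1 and 2.99 without WT replicate 2.

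Apol6 (ENSMUSG00000033576, chromosome 15, 77044729 to 77057106, plus strand), the counterpart of human APOL6, which has been linked to cell death, had low counts in all groups, and 64 of its exon bases overlap another gene. It had 5 and 8 counts in WT, 14 and 4 in Trex1-KO, 3 and 5 with H151, and 7 and 3 with SN-011. The Trex1-KO libraries, at 1.06 and 0.263 CPM, spanned the WT values of 0.368 and 0.541 CPM.

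Apol8 had 1 count in each WT library, 0 in both Trex1-KO libraries, 0 and 2 with H151, and 3 and 0 with SN-011. Apol10b had 0 and 1 counts in WT, 3 and 0 in Trex1-KO, 0 and 1 with H151, and 0 in both SN-011 libraries. Neither gene rose above the floor of 3 counts in any library, and no fold change is given for either. The other 8 Apol genes had between 0 and 3 counts each over all 8 libraries.

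**Figure D2:**
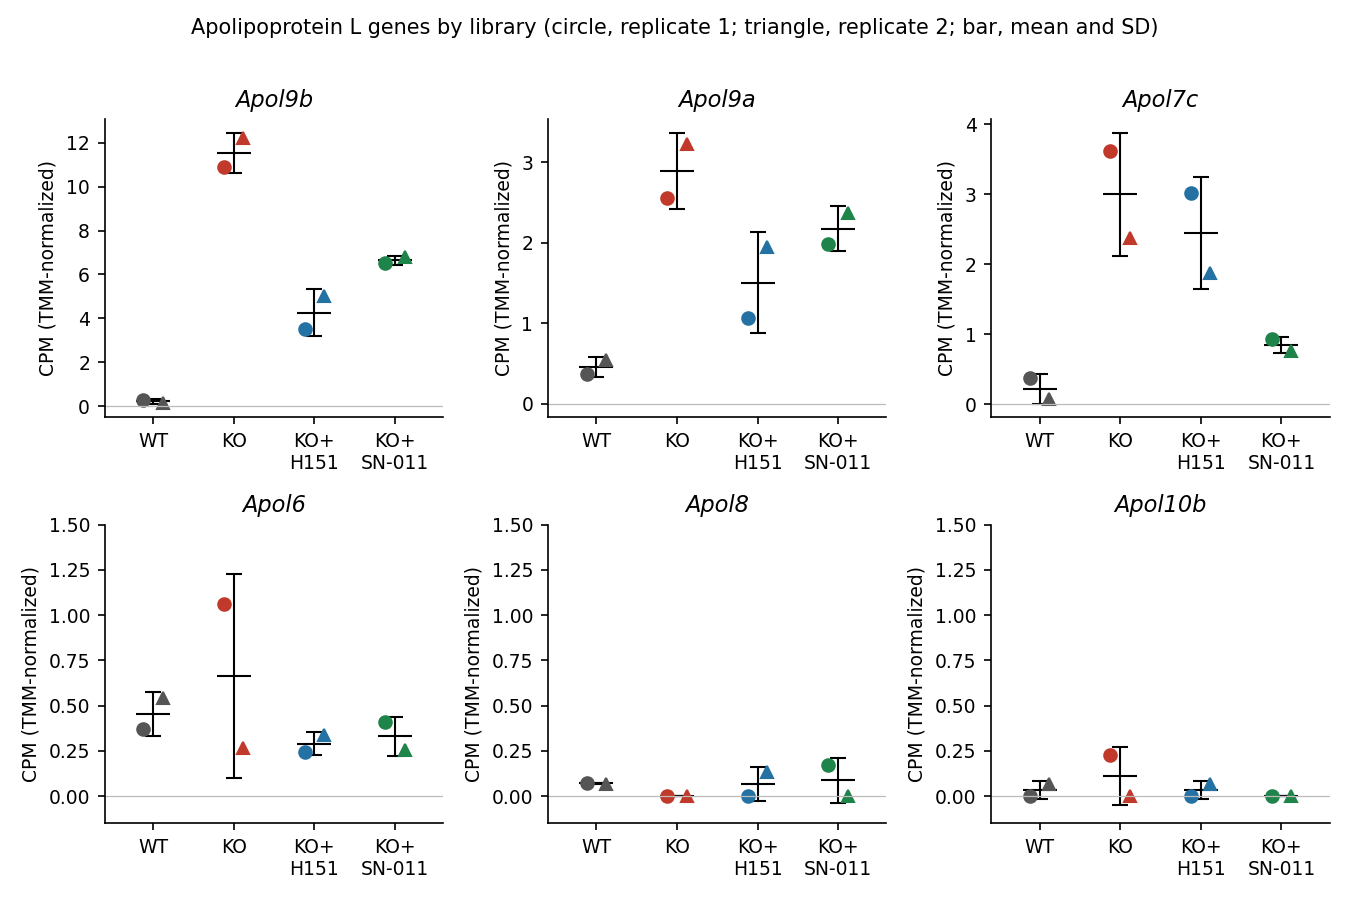
Level of each member (CPM, linear axis) in the 4 groups, with replicate 1 as a circle, replicate 2 as a triangle, and the mean with its SD (n = 2) as bars. The Apol9b and Apol9a libraries with H151 lie below those with SN-011, Apol7c is lowest of the Trex1-KO groups with SN-011, and Apol6, Apol8 and Apol10b, drawn on a shared axis, have low counts in every group.

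Between genes, levels were compared per kilobase of the longest coding transcript. On that scale Apol9b reached 7.32 ± 0.599 CPM per kb (SD, n = 2) in Trex1-KO, Apol9a 1.89 ± 0.307 and Apol7c 1.45 ± 0.428. Apol9b thus stood above the other members beyond their spread, while the libraries of Apol9a and Apol7c overlapped. In WT the order differed, with Apol9a at 0.297 ± 0.0804, Apol6 at 0.196 ± 0.0531, Apol9b at 0.136 ± 0.0713 and Apol7c at 0.106 ± 0.103 CPM per kb, and neighbours in that order were not separated by their spread. The length matters for Apol9a, whose exons cover 5953 bases when a long transcript of 4246 bases is included, against 1530 bases in the longest coding transcript. Per kilobase of all exons Apol9a was at 0.486 CPM per kb in Trex1-KO, and Apol7c at 1.45.

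Apol9a and Apol9b are hard to tell apart by sequence. Their longest coding transcripts were 98.4% identical over 1422 aligned bases, whereas other pairs of members aligned over shorter stretches at 66.3% to 82.2% identity. Of the 150-base windows in the transcripts, 22.5% of Apol9b and 7.10% of Apol9a also occurred in another gene, compared with 0.302% of Apol7c and none of Apol6, Apol8 and Apol10b. Read pairs that lie wholly in shared sequence cannot map to a unique place, only unique pairs were counted, and the split of the remaining reads between the copies is uncertain.

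The share of Apol9b in the counts of both copies was 80.9% and 79.1% in the Trex1-KO libraries, with exact 95% binomial intervals of 74.3% to 86.4% and 73.3% to 84.1%. It was 76.8% and 72.1% with H151, and 76.7% and 74.1% with SN-011. In WT it was 44.4% and 20.0%, but on 9 and 10 read pairs, with intervals of 13.7% to 78.8% and 2.52% to 55.6%. Apol9b was thus the larger part in all 6 Trex1-KO libraries, while both WT intervals reach above an even split. Apol9b was chosen for its rise in Trex1-KO over WT, which favours a larger share there. Nothing is therefore read from the difference in share between the genotypes.

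In the comparison that served to choose the members, all of Apol9b, Apol7c and Apol9a were called higher in Trex1-KO by the edgeR quasi-likelihood test at a false discovery rate (FDR) of 0.05, where 9.27% of the 14591 tested genes were called higher. Nothing is read from this count, because the choice of members used it. By size of the fitted log2 fold change Apol9b ranked 13th from the highest, Apol7c 38th and Apol9a 85th.

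The question put by the antagonist groups was how far each compound lowers genes raised in Trex1-KO cells. These comparisons share the Trex1-KO libraries with the one used for the choice. The members were chosen, and passed the filter, for a high level in those libraries, which favours a fall from them, so that nothing is read from how many members were called or where they ranked. With H151, Apol9b fell to 4.27 ± 1.08 CPM from 11.5 ± 0.942 (SD, n = 2). The log2 fold change was -1.42 ± 0.21 (SE; 95% confidence interval -1.86 to -0.97) and the edgeR adjusted p was 0.00131. It was the only member called, where 1.84% of all tested genes were called lower, and its fitted fold change was the 65th from the lowest. Apol9a was at 1.5 ± 0.628 CPM against 2.89 ± 0.470, with a log2 fold change of -0.92 ± 0.35 (interval -1.68 to -0.17) that did not pass the adjustment (edgeR adjusted p = 0.351). Apol7c was at 2.44 ± 0.801 CPM against 2.99 ± 0.881, with a log2 fold change of -0.30 ± 0.38 (interval -1.12 to 0.52; edgeR adjusted p = 0.929) and overlapping libraries. The sign of that value turned when 1 library was left out, to 0.028 without Trex1-KO replicate 1 and 0.0167 without H151 replicate 2.

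With SN-011, 0 of the 3 tested members passed the edgeR quasi-likelihood test, where 2.22% of all tested genes were called lower, and 2 members were lower at an unadjusted p under 0.05, where 7.27% of all tested genes were. Apol9b was at 6.65 ± 0.196 CPM, a log2 fold change from Trex1-KO of -0.80 ± 0.19 (interval -1.22 to -0.38) with an edgeR adjusted p of 0.0521. Apol7c was at 0.847 ± 0.118 CPM, a log2 fold change of -1.78 ± 0.44 (interval -2.73 to -0.84) with an edgeR adjusted p of 0.0531, the 27th from the lowest of all tested genes. Apol9a was at 2.18 ± 0.282 CPM, with a log2 fold change of -0.43 ± 0.33 (interval -1.15 to 0.29; edgeR adjusted p = 0.653).

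The calls for Apol9b and Apol7c with SN-011 lay at the edge of the threshold and moved with the method. The edgeR exact test, a negative binomial test of the kind the study's methods name, called both (adjusted p = 6e-04 for Apol9b and 0.000417 for Apol7c), and the DESeq2 Wald test did not call Apol9b (adjusted p = 0.135) and gave no adjusted p for Apol7c or Apol9a. Across 16 alternatives for Apol9b the adjusted p ran from 0.0006 to 0.407 and it was called in 7, and across 16 for Apol7c from 0.000175 to 0.331 with a call in 10.

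The part of the Trex1-KO excess over the WT mean that was left with each compound, computed per library, describes the same values. For Apol9b 29.1% and 42.6% was left with H151 and 55.7% and 58.1% with SN-011. For Apol9a it was 24.7% and 61.1% with H151 and 62.3% and 78.7% with SN-011. For Apol7c it was 101% and 59.8% with H151 but 25.6% and 19.7% with SN-011, so that the compounds stood in the opposite order to the Apol9 copies.

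Each gene was then compared between SN-011 and H151, in a comparison that shares no library with the one used for the choice. It uses the libraries in which the order was seen, and the difference in order between genes was not tested. The sample records of SN-011 are numbered apart from those of the other groups, and the labels name no run. Any difference between runs would be part of the comparisons with SN-011 and was not tested. The edgeR quasi-likelihood test called 0 of the 3 tested members, where 0.158% of all tested genes were called. At an unadjusted p under 0.05 there were 2 members, where 8.91% of all tested genes passed. The edgeR exact test and the DESeq2 Wald test also called 0, and with no filter Apol7c was called (adjusted p = 0.0178). Apol9b had a log2 fold change of SN-011 over H151 of 0.62 ± 0.22 (interval 0.15 to 1.09; edgeR adjusted p = 0.465), and Apol9a had a value of 0.49 ± 0.36 (interval -0.29 to 1.28; edgeR adjusted p = 0.724). The value of Apol7c was -1.48 ± 0.45 (interval -2.46 to -0.51; edgeR adjusted p = 0.391), the 25th from the lowest of all tested genes. None of the 3 differences passed the adjustment over all genes, and the interval of Apol7c leaves room for a difference of more than 2 log2 units.

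**Figure D3:**
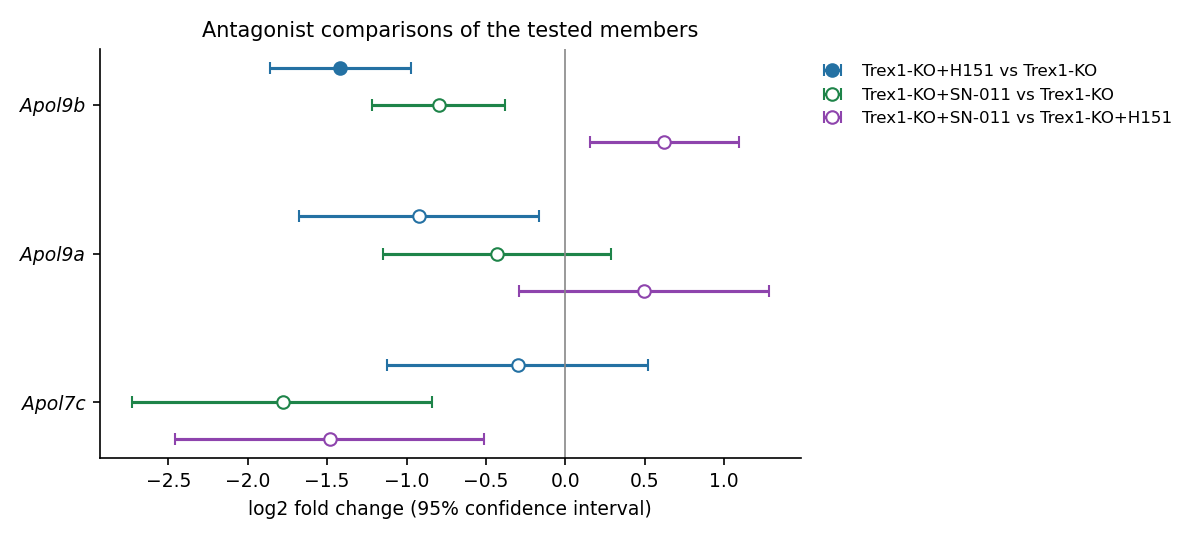
Log2 fold changes with 95% confidence intervals for Apol9b, Apol9a and Apol7c in 3 comparisons among Trex1-KO groups, with a filled point where the edgeR adjusted p is under 0.05. The filled point is Apol9b with H151 at -1.42, and Apol7c lies at -1.78 with SN-011 but at -0.30 with H151.

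Comparisons of treated cells with WT again share libraries with the one used for the choice. With H151 Apol9b was 4.29 ± 0.40 log2 units higher than WT (edgeR adjusted p = 1.13e-05), Apol7c by 3.46 ± 0.59 (edgeR adjusted p = 0.00132) and Apol9a by 1.72 ± 0.47 (edgeR adjusted p = 0.0302). Of all tested genes 6.79% were called higher, but the choice of members and the filter, which these genes passed through the Trex1-KO groups, favoured a level above WT, and nothing is read from the count of 3. Without WT replicate 1 the values were 4.90 for Apol9b and 4.99 for Apol7c, and without WT replicate 2 they were 3.83 and 2.69, all of them called. The Apol9a call was lost in 5 of 16 alternatives, with adjusted p up to 0.238 without H151 replicate 2, 0.186 without WT replicate 1 and 0.0887 without WT replicate 2.

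With SN-011 2 members were called higher than WT, where 6.18% of all tested genes were, and the same limit holds. Apol9b was higher by 4.91 ± 0.38 (edgeR adjusted p = 1.65e-06), or 5.53 without WT replicate 1, and Apol9a by 2.21 ± 0.45 (edgeR adjusted p = 0.00477, and 0.057 without WT replicate 1). Apol7c, at 1.97 ± 0.69 (interval 0.49 to 3.46), did not pass (edgeR adjusted p = 0.0888), but was called by the edgeR exact test (adjusted p = 0.0319) and with no filter (0.0162). The value was 3.50 without WT replicate 1 and 1.20 without WT replicate 2, neither of them called.

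When the counts of Apol9a and Apol9b were summed, which removes the uncertain split, the pair had a fitted log2 value of -1.31 ± 0.19 with H151 against Trex1-KO (edgeR adjusted p = 0.0016). With SN-011 the value was -0.72 ± 0.18 (edgeR adjusted p = 0.0671). The pair stayed above WT with H151 (3.11 ± 0.31) and with SN-011 (3.70 ± 0.29).

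Genes that carry the IFN signal were set beside the members as a list of 16, of which 15 were tested. In Trex1-KO 10 rose, where 9.27% of all tested genes did. The median log2 fold change of the 15 was 0.46, against -0.00196 over all tested genes. Those that rose included Irf7, the factor that amplifies IFN production (2.62), Usp18, which restrains the receptor (2.63), and Stat2, a transcription factor of the pathway (1.57). Each compound lowered 6 of the 15, where 1.84% of all tested genes fell with H151 and 2.22% with SN-011. Stat2 fell by 1.05 with H151 and by 0.98 with SN-011, and Usp18 fell by 1.28 and by 0.99, beside values of -1.42 and -0.80 for Apol9b and of -0.30 and -1.78 for Apol7c. Ifnb1, the gene of IFN-beta, had 1 or 2 counts per group.

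Upstream of IFN, 5 of 7 genes of the cGAS-STING list were tested. Cgas, the DNA sensor, and Ikbke, a kinase that activates Irf3, rose in Trex1-KO by log2 fold changes of 0.75 and 0.41, and fell with H151 by 0.64 and by 0.40. With SN-011 Ikbke fell by 0.46, and Cgas had a value of -0.42 (edgeR adjusted p = 0.246).

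Other genes named as apolipoproteins include lipid carriers of lipoprotein particles. Of 19 such genes 7 had enough counts to be tested, and in Trex1-KO Apobr, a receptor for apolipoprotein B, rose by 0.37 (log2) and Apoc1 fell by 1.57. Apoe, the main apolipoprotein of macrophages, averaged 13900 CPM in WT against 14500 in Trex1-KO (log2 fold change 0.06, edgeR adjusted p = 0.714).

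The Apol genes lie in a cluster, so their neighbours were examined from 500 kb before the cluster to 500 kb after it (chr15:76544729-78257003). Of 75 genes in this window, 28 that are not members were tested. In Trex1-KO Ncf4, a subunit of the phagocyte oxidase, was higher than in WT by a log2 fold change of 0.34. The same comparison had Rbfox2, a splicing regulator whose gene lies between Apol6 and the other copies, lower by 0.95, and Myh9, a non-muscle myosin next to Apol8, lower by 0.27. Of all tested genes 7.11% were called lower there. The median of the 28 was -0.04. With SN-011 Slc39a4, a zinc transporter, was lower than in Trex1-KO by 1.09 (edgeR adjusted p = 0.00831).

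**Figure D4:**
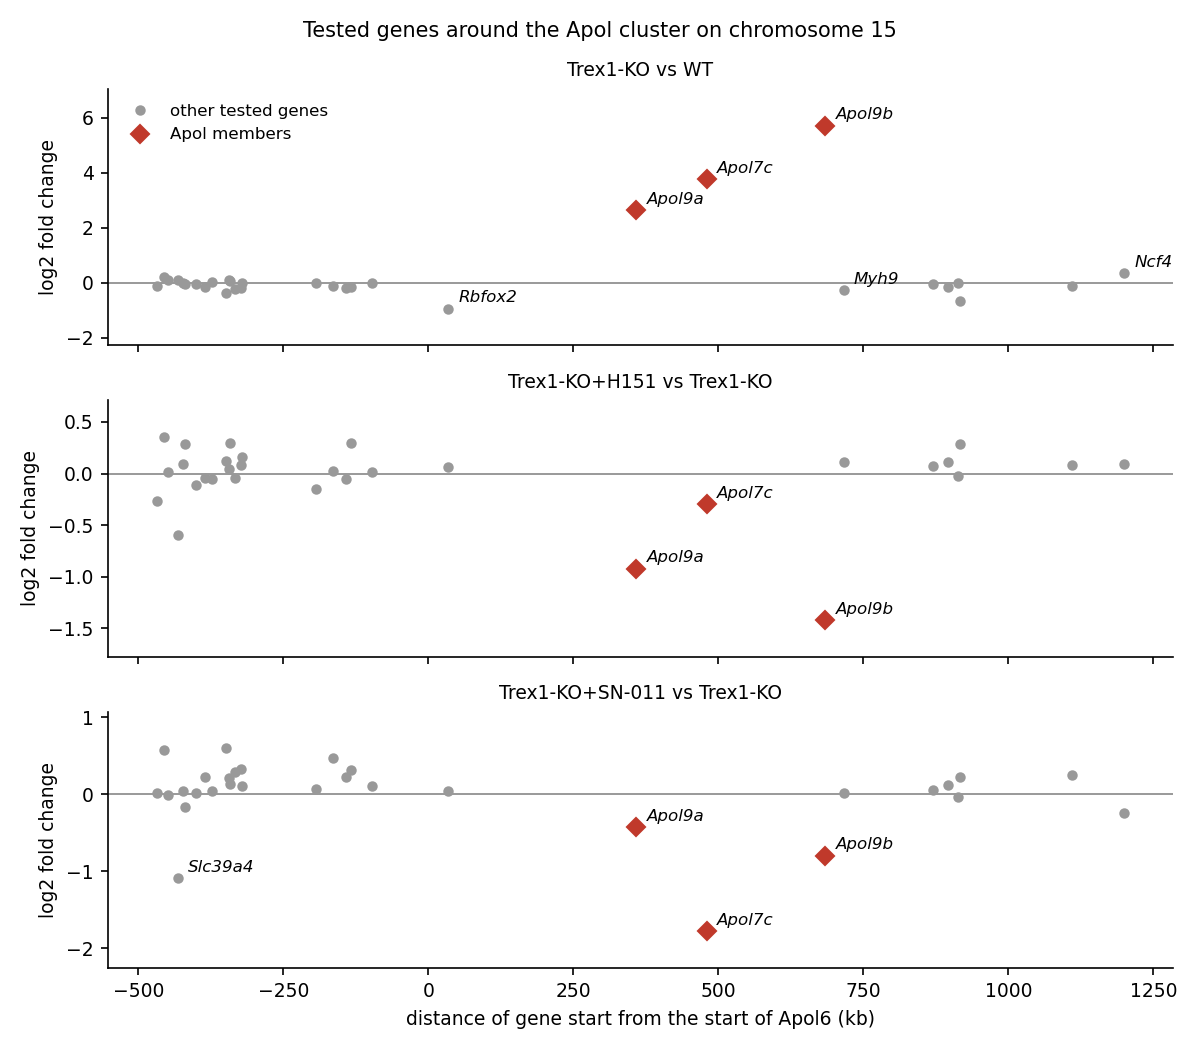
Log2 fold change of every tested gene around the Apol cluster against the distance of its start from that of Apol6 in kb, for Trex1-KO over WT and for each compound over Trex1-KO. Members are red diamonds and other genes grey circles, with names for members and for called genes. Apol9a, Apol7c and Apol9b stand at 2.64, 3.76 and 5.71 in Trex1-KO while the other called genes lie between -0.95 and 0.34.

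Among themselves, Apol9a and Apol9b had the most alike patterns, with a Pearson's r of 0.957 between their log2 CPM over the 8 libraries, followed by Apol7c with Apol9b (0.839) and Apol7c with Apol9a (0.694). These correlations describe 8 libraries that fall into 4 groups and carry no p. The genes most like Apol9b were Slfn4, an IFN-inducible schlafen (0.997), H2-Q6 (0.996), B2m (0.995) and H2-Q7 (0.994), which encode parts of MHC class I molecules, and A530040E14Rik (0.993). Those most like Apol9a were Calcrl (0.993), Cd300lf, an inhibitory receptor of myeloid cells (0.985), Gripap1 (0.983), Stx7, a syntaxin of endosomes (0.983), and Ifi27l2a, an IFN-inducible gene (0.982).

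Apol7c was most like Nsd1, a histone methyltransferase (0.993), Tpm3, a tropomyosin (0.988), Uhmk1 (0.976), Mapk9, a stress kinase (0.974), and Pik3ap1, an adaptor of phosphoinositide 3-kinase (0.974). Such an r takes no account of the size of a change. Around its mean, log2 CPM ran from -0.213 to 0.123 in Nsd1 and from -0.436 to 0.389 in Pik3ap1, against -2.59 to 1.58 in Apol7c. The number of other tested genes with an r of at least 0.95 was 186 for Apol9b, 67 for Apol9a and 39 for Apol7c.

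**Figure D5:**
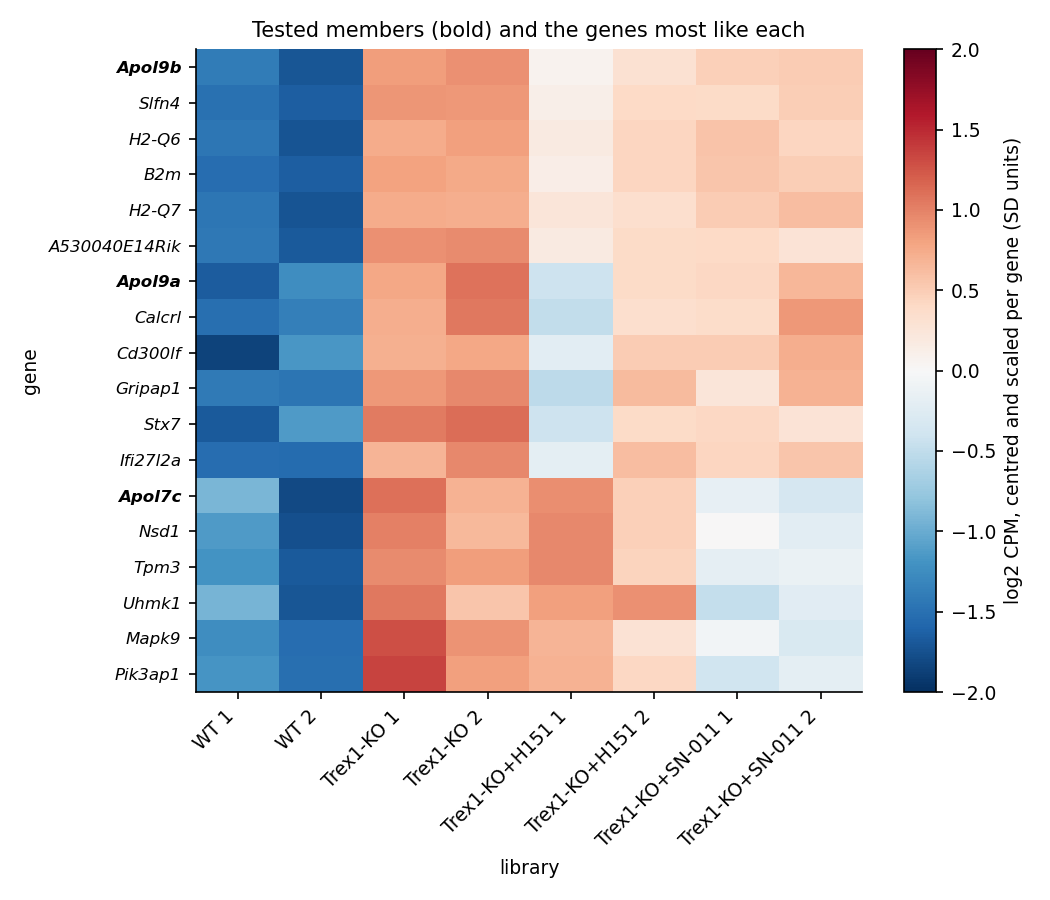
Log2 CPM of the tested members (bold) and of the 5 genes most like each, centred and scaled per gene in SD units, in the 8 libraries. The Apol9b block is lowest in WT and highest in Trex1-KO with both antagonist groups between them, the Apol9a block is lower in H151 replicate 1 than in the SN-011 libraries, and the Apol7c block is near or below 0 in the SN-011 libraries.

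Levels in a bulk library cannot tell apart more cells of a type from more RNA per cell, and marker genes of other cell types moved with the groups. Of 8 dendritic cell markers 4 were tested, and Xcr1 and Clec9a, both markers of cross-presenting dendritic cells, rose in Trex1-KO (log2 fold changes 2.88 and 2.60). Of all tested genes 9.27% were called higher there. Clec9a was at 0.368 and 0.203 CPM in the WT libraries, 1.81 and 1.71 CPM in vehicle-treated Trex1-KO, 1.06 and 0.671 CPM with H151, and 0.523 and 0.594 CPM with SN-011. Xcr1 had 4 counts over the WT libraries, 31 over Trex1-KO, 35 with H151 and 23 with SN-011. Flt3 and Zbtb46, which define the dendritic lineage, were not among the genes that rose, Flt3 being too low to test. Flt3 had 8 counts in WT, 2 in Trex1-KO, 7 with H151 and 10 with SN-011. Zbtb46 had 40, 16, 23 and 46 counts in the same groups. The summed level of the 8 markers was 3.11 to 3.53 CPM in WT, then 4.90 to 5.66 in Trex1-KO, 3.74 to 5.5 with H151 and 4.07 to 4.41 with SN-011, with Ccr7 at 0 in every library. The part of these cells in the level of Apol7c was not tested.

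Of 7 neutrophil markers the 4 tested, S100a8, S100a9, Camp and Ngp, rose in Trex1-KO, where 9.27% of all tested genes were called higher. The summed level of the 7 was 7.64 to 7.85 CPM in both WT libraries, 49.9 to 70.2 in Trex1-KO, 64.2 to 64.9 with H151 and 63.5 to 79.7 with SN-011. Ly6g had 0 counts in WT, 1 in Trex1-KO, 4 with H151 and 6 with SN-011. Fibroblast markers were lower in Trex1-KO for 5 of 6 tested of 7, where 7.11% of all tested genes were called lower. Dcn had a log2 fold change of 0.46 and was not called. Lum, too low to test, had 11 counts in WT and 19 in Trex1-KO. Col1a1 and Col1a2 made up most of the summed level. It was 2100 to 2300 CPM in WT, 861 to 1060 in Trex1-KO, 1100 to 1220 with H151 and 932 to 1120 with SN-011. Of 10 lymphocyte markers 2 were tested and Cd4 was lower, with summed levels of 36.2 to 36.5 CPM in WT, 24.5 to 25.5 in Trex1-KO, 22.2 to 23.8 with H151 and 22.0 to 24.8 with SN-011. The part of these shifts in the levels of the members was not tested.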

How the data were processed

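RNA-Seq of BMDMs was available as 1 table of raw counts per library for 8 libraries, grouped by their titles. Per the labels, reads were aligned with HISAT2 to mm10 and counted with HTSeq, while the study's methods name Trimmomatic, hisat2 at default settings and featureCounts on uniquely mapped pairs. Versions and the strand setting are not given in the sources used here. The deposited counts were used without further scaling. GENCODE mouse release 21 (GRCm38) held 54495 of 54532 identifiers and lacked 37. Genes were kept with filterByExpr (minimum count 10, minimum total 15), which left 14591. All 8 libraries entered 1 quasi-likelihood fit in edgeR 4.0.16 (R 4.3.3) with TMM factors of 0.973 to 1.04, 1 mean per group, two-sided F-tests and Benjamini-Hochberg adjustment over all tested genes at an FDR of 0.05. Standard errors were derived from the F statistic and are approximate, and intervals are at 95%. The common biological coefficient of variation was 0.0656, and libraries within a group correlated at 0.990 to 0.991.

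Shares carry exact Clopper-Pearson intervals. Promoters are those of RefSeq (GRCm38.p6). Likeness is Pearson's r of log2 CPM over the 8 libraries (prior count 2). Named genes were the 6 members, all other Apol genes, called genes within 500 kb of the cluster, the 5 genes most like each tested member with a mean log2 CPM of at least 0, and 2 to 4 examples per list. The members and lists were chosen with earlier results of these data known. Alternatives were DESeq2 1.42.0, the edgeR exact test, other scaling, filters and fits, the replicate block, summed Apol9 copies and leaving out each library. The script was tested on simulated data.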

Additional observations from a re-analysis of the deposited data

How the results depend on the processing

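Apol9b with H151 against Trex1-KO was called in all 16 alternatives (highest adjusted p 0.0144), and Apol9b was called against WT with both compounds in every one. The choice of Apol9b for its rise in Trex1-KO over WT, in libraries these comparisons share, favoured those calls, so that nothing is read from their number. The number of members called with SN-011 against Trex1-KO, 0 as reported, was 1 with DESeq2 size factors and with the stricter filter (Apol9b in the former, Apol7c in the latter), and 2 with no filter, with only the 2 groups compared and with the edgeR exact test; it ran from 0 to 2 when 1 library was left out. Between SN-011 and H151 it was 1 (Apol7c) with no filter. With SN-011 against WT, where 2 are reported, it was 3 with no filter and with the exact test, 1 when the Apol9 copies were summed, since both then count as 1, and 1 without WT replicate 1. Genes called in all were 525 with no filter for H151 against Trex1-KO (325 as reported), 679 with no filter and 567 with the exact test for SN-011 against Trex1-KO (340), and 266 with no filter, 72 with the exact test and 38 with DESeq2 between the compounds (23). Leaving out 1 library gave 1588 to 2691 for Trex1-KO against WT, 986 to 1778 for H151 against WT, 906 to 1944 for SN-011 against WT, 121 to 481 for SN-011 against Trex1-KO and 2 to 270 between the compounds, the lowest 2 without SN-011 replicate 1 and the highest 270 without H151 replicate 2. Apol7c with H151 against Trex1-KO ran from -0.662 to 0.028 when 1 library was left out, turning from -0.30 to 0.028 without Trex1-KO replicate 1 and to 0.0167 without H151 replicate 2. Scaling by total counts alone moved the share of called genes that were higher from 56.6% to 37.2% for Trex1-KO against WT, from 57.4% to 41.7% for H151 against WT and from 52.6% to 40.3% for SN-011 against WT. The cause of these shifts was not tested. Depth limits Apol6, Apol8 and Apol10b, which had too few counts to be tested.

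The labels do not say what the replicate number marks, so whether same-numbered libraries share a culture or animal is unknown. Their deviations from the group means correlated across genes at 0.194 for Trex1-KO with H151, -0.0055 for Trex1-KO with SN-011 and -0.0163 for H151 with SN-011. With the replicate block 2 members were called with SN-011 against Trex1-KO (Apol9b, adjusted p = 0.0355, and Apol7c, 0.015), and 44 genes were called between the compounds. The block changed no other member call.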
